A study of Mus musculus with 2 samples.

Results

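The 38 genes described here encode the Toll-like receptors of the mouse, the inflammasome sensors and the adaptors and kinases that carry their signals. They are 38 of the 37074 gene names of the array, and every non-control probe under those names was used, which gave 69 of 56605 probes. The study set peritoneal macrophages, phagocytes of the abdominal cavity, from MeXis null mice against those from wild-type (WT) mice, both with the strain given as bl6. MeXis is a long noncoding RNA gene near the cholesterol transporter gene Abca1, and the labels do not describe how its null allele was made. Cells of both genotypes were kept in DMEM with serum and antibiotics, and the labels name no ligand, microbial product, age or sex. RNA pooled from 3 samples was hybridised to 1 one-colour Agilent array for MeXis null and 1 for WT, so every difference below is between 2 arrays and carries no test.

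Toll-like receptors bind conserved microbial molecules at the cell surface or inside endosomes. Most signal through the adaptor MyD88 to IRAK kinases and the ubiquitin ligase TRAF6, and thereby to NF-kB, while TLR3 and internalised TLR4 use TRIF. Inflammasome sensors watch the cytosol instead: NAIP proteins bind bacterial flagellin or secretion system proteins and engage NLRC4, AIM2 binds DNA, and the adaptor ASC links sensors to caspase-1. Peritoneal macrophages are a classical cell for the study of these responses.

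Differences are given on the log2 scale, MeXis null minus WT, after each array was divided by its 75th percentile over spots well above background on both arrays. That percentile was 3723 on MeXis null and 3535 on WT, a ratio of 1.05 by which the printed signals, which are unscaled, still differ. Well above background were 44.3% of non-control spots on MeXis null and 48.0% on WT, and the lowest such signals were 27.3 on MeXis null and 12.1 on WT. The median scanner error was 0.20. Among 285 probes printed several times, spots carrying an identical probe had differences with an SD of 0.47 (median over those probes). A difference of 0.91, or 1.88-fold, is therefore used as the limit of this spread for a probe read from 1 spot. Values are also given after subtraction of the median difference of the 100 nearest spots, called local surface correction. The SD between spots of an identical probe was then 0.33 and the limit 0.64. Both limits describe position on the same 2 arrays only. They hold no variation between pools, labellings or hybridisations, so a difference beyond a limit is not thereby a difference between genotypes. The probe for MeXis itself, named AI427809 in the files, read 8.44 on MeXis null and 12.3 on WT. Both are below the call for background, so it does not check the labels.

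Innate sensing genes differed by less than 1.5-fold between MeXis null and WT in 22 of the 32 measured (68.8%), beside 66.9% of all genes. Of the 38 genes 32 were well above background on both arrays when read from the probe with the highest mean signal. None of the 32 was at least 2-fold higher in MeXis null and 1, Mavs, was at least 2-fold lower, beside 7.68% higher and 4.55% lower among all 15482 genes above background on both arrays. At 1.5-fold 5 were higher (Tlr6, Cd14, Ly96, Pycard and Casp4) and 5 lower (Mavs, Nlrc4, Nlrx1, Naip1 and Naip6), beside 19.3% and 13.8% of all genes. After local surface correction none was 2-fold higher and Mavs was 2-fold lower, beside 3.65% and 3.44% of all genes, and at 1.5-fold 2 were higher (Cd14 and Casp4) and 4 lower (Mavs, Nlrc4, Naip1 and Naip6), beside 11.8% and 13.2%. The median difference was 0.16 over the members and 0.05 over all genes, and -0.06 against -0.04 after local surface correction. The middle 50% of members lay between -0.29 and 0.42, and that of all genes between -0.34 and 0.45. The remaining 6 genes had no value on both arrays: Tlr3, Tlr5, Tlr11, Tlr12 and Nlrp3 were too dim, and the only spot of Tlr2 carried an outlier mark.

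**Figure D1:**
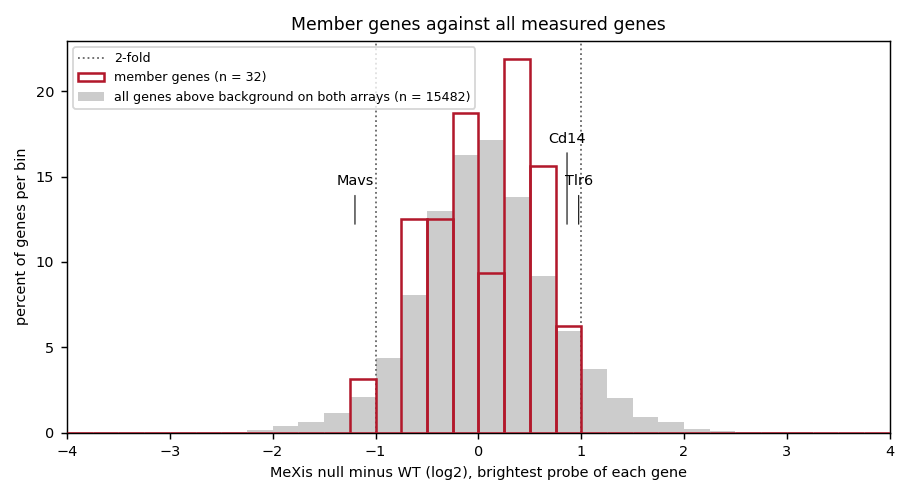
Histogram of the log2 difference MeXis null minus WT (x axis, bins of 0.25) as percent of genes per bin (y axis) for the 32 member genes (red outline) and all 15482 genes above background on both arrays (grey), with dotted lines at 2-fold. Mavs is the one member beyond 2-fold, and Cd14 and Tlr6 lie just inside 2-fold on the higher side.

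By probe, 52 of the 69 passed background on each array, 1 on the MeXis null array alone, 7 on the WT array alone and 8 on neither, and 1 carried the outlier mark. Over all non-control spots more passed on WT as well, 48.0% against 44.3% on MeXis null. The lowest passing signal was also lower on WT, at 12.1 against 27.3 on MeXis null. Among the 52, 5 reached 2-fold on the higher side and 2 on the lower, beside 8.04% and 4.53% of all 22733 such probes. After local surface correction 1 was higher and 1 lower, beside 3.67% and 3.29%. The pair that stayed were a Cd14 probe and the Mavs probe.

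**Figure D2:**
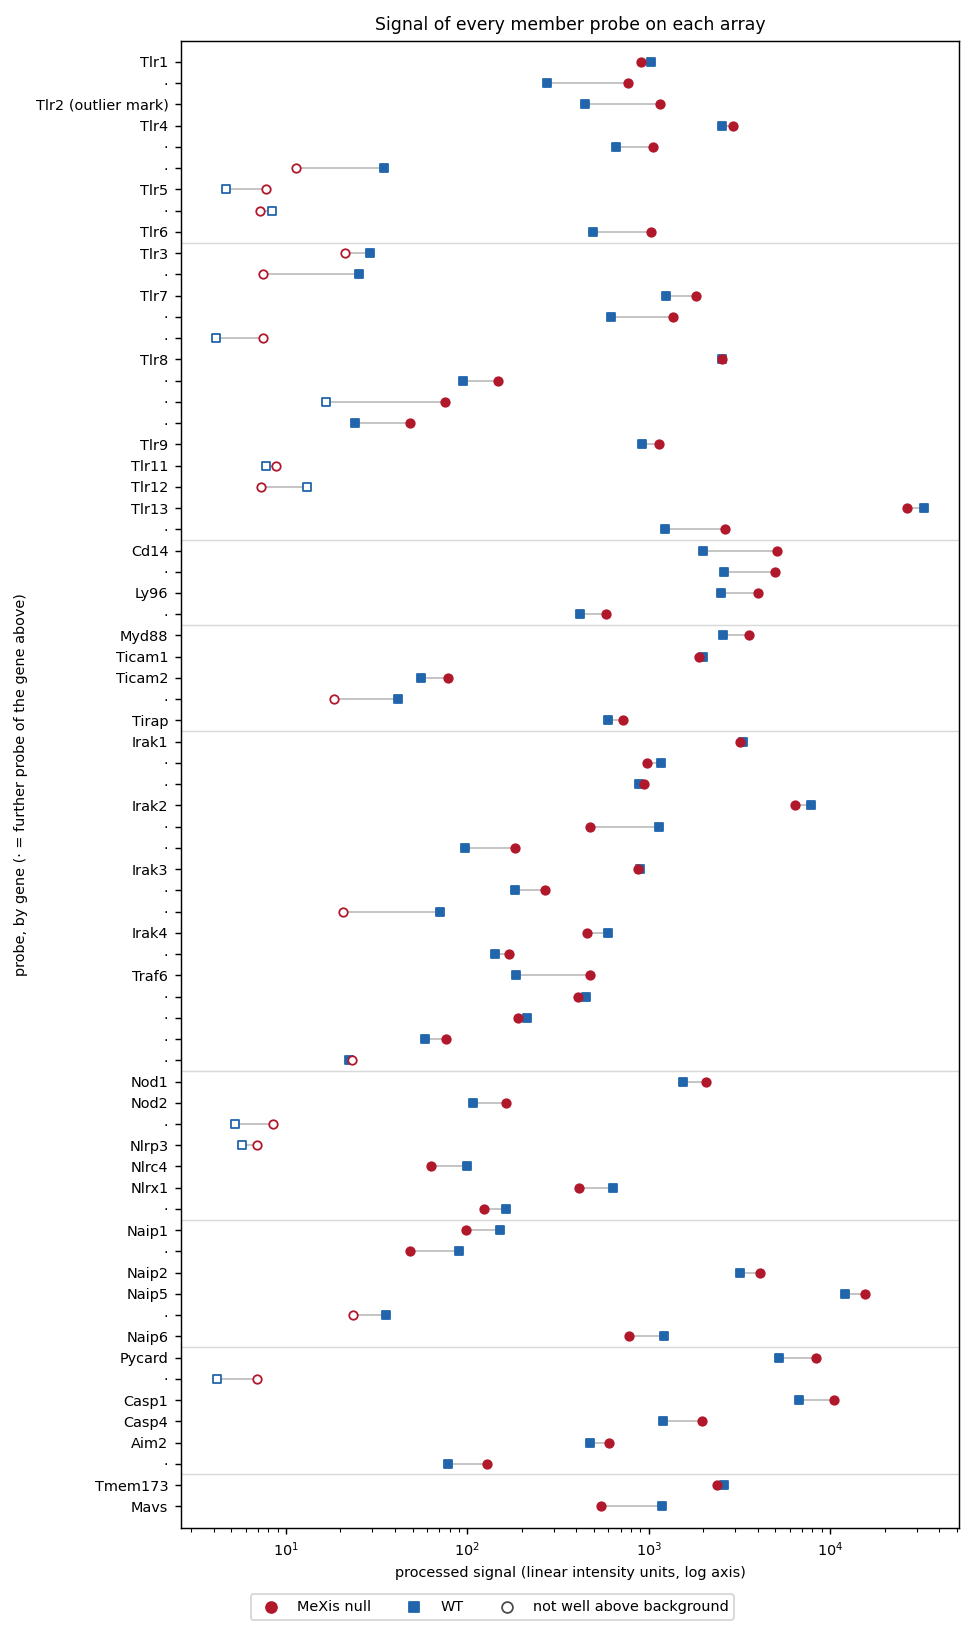
Processed signal (x axis, linear intensity units on a log axis) of each of the 69 member probes (rows, grouped by role) on the MeXis null array (red circles) and the WT array (blue squares), with open symbols where a probe was not well above background. Rows compare the arrays for one probe and not one probe with another; both Cd14 probes lie higher in MeXis null and the Mavs probe lower.

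Cd14, the co-receptor that hands lipopolysaccharide (LPS) to TLR4, was higher in MeXis null at both of its probes. These lie 182 bases apart. The probe from which the gene is read gave 4985 on MeXis null and 2604 on WT, a difference of 0.86 (1.82-fold, scanner error 0.20), and the other gave 5103 on MeXis null and 1982 on WT, a difference of 1.29 (2.44-fold). Only the second passed the limit of 0.91. The spots around them differed little, by 0.08 and 0.05, and the corrected differences of 0.79 and 1.24 both lay beyond the corrected limit of 0.64. Over the scalings tried the 2 probes ranged from 0.79 to 1.26 and from 1.21 to 1.36.

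Ly96, which encodes MD-2, the LPS-binding partner of TLR4, has a probe whose sequence is largely a repeat. The 2 Ly96 probes lie at chr1:16699612-16699671 and chr1:16678610-16678669 on mm9, both on the plus strand. They are shown because the first, from which the gene is read, holds a run of 34 bases found in probes of other genes, with the part of that run inside the 30 bases shown in capitals.
Ly96, bases 22 to 51 of the first probe: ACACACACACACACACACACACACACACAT
Ly96, bases 1 to 30 of the second probe: tcgacgctgctttctcccatattgactgaa
The repeat probe shares a run of at least 20 bases, on either strand, with 85 probes of other gene names, while 5.42% of all probes share such a run with any. It read 4025 on MeXis null and 2491 on WT, a difference of 0.62, and its neighbours differed by 0.63, which left -0.02. The probes that share at least 16 bases with it and were measured on both arrays, 114 in number, had a median difference of -0.09. The second Ly96 probe read 582 on MeXis null and 416 on WT, a difference of 0.41, or 0.08 once corrected.

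Among the receptors of the cell surface, Tlr4, the LPS receptor, differed by 0.13 at the probe it is read from, with 2937 on MeXis null and 2541 on WT. That probe lies 87416 bases from the nearest other Tlr4 probe and its accession is an Ensembl transcript. Both of the other probes carry the same RefSeq transcript. One read 1061 on MeXis null and 658 on WT, a difference of 0.61, or 0.17 after local surface correction. The other passed background on the WT array alone, with 11.4 on MeXis null and 35.0 on WT. Before correction it was at least 1.35-fold lower with a scanner error of 1.43, and its neighbours differed by -0.22. The sign of the probe the gene is read from depended on the processing, at -0.47 with another background correction (normexp) and 0.57 after local surface correction.

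Tlr6, the partner of TLR2 for diacylated lipopeptides, read 1025 on MeXis null and 495 on WT. Its difference of 0.98 (1.97-fold) passed the limit of 0.91, but the 100 spots around it differed by 0.59, and the corrected value of 0.38 lay inside the corrected limit. Tlr2, the shared chain of the lipopeptide receptors, read 1161 on MeXis null and 443 on WT at a spot marked as an outlier on WT. With the mark ignored the difference was 1.32, and 0.78 after local surface correction. Tlr5, the flagellin receptor, read 7.74 on MeXis null and 4.70 on WT at one probe and 7.24 on MeXis null and 8.34 on WT at the other, with neither well above background.

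Tlr1, the partner of TLR2 for triacylated lipopeptides, is read by a pair of probes only 61 bases apart, at chr5:65315994-65316053 and chr5:65316115-65316174 on mm9, minus strand. Their sequences are given because the values differ in sign although the targets are almost adjacent; no run of 16 or more bases in either is found in another gene's probe.
Tlr1, bases 1 to 30 of the first probe: ggggagttctaataatagtaccattcatat
Tlr1, bases 1 to 30 of the second probe: caagcatggacttttttgggcaaacctaag
The first read 904 on MeXis null and 1034 on WT, a difference of -0.27. The second read 771 on MeXis null and 275 on WT, a difference of 1.41 (2.66-fold). Local surface correction left -0.49 and 0.72, still of opposite sign, so no direction is given for Tlr1.

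Most of the endosomal receptors sense nucleic acids. Tlr7, the receptor for single-stranded RNA, was higher at both measured probes, which lie 223 bases apart. One read 1818 on MeXis null and 1249 on WT, a difference of 0.47, and the other 1355 on MeXis null and 617 on WT, a difference of 1.06 (2.09-fold). After local surface correction they were at 0.32 and 0.82, and only the second lay beyond the limit, before as well as after correction. The remaining Tlr7 probe, for another transcript, passed background on neither array, with 7.49 on MeXis null and 4.14 on WT.

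Tlr8, the neighbour of Tlr7 on the X chromosome, has 4 probes. The probe it is read from gave 2538 on MeXis null and 2545 on WT, a difference of -0.08. The other probes read 148 on MeXis null and 94.8 on WT (0.57), 48.6 and 24.1 (0.94), and 75.7 and 16.7. The last passed background on the MeXis null array alone and was 4.29-fold higher against its own dim WT signal (scanner error 0.43). Local surface correction lowered the log2 difference of that probe from 2.10 to 1.53. Only 29 bases separate that probe from the one at 0.57. The 3 probes measured on both arrays lay above 0 after local surface correction, at 0.52, 0.22 and 0.36. With normexp they were at -0.42, 0.39 and 0.20, so the sign of the probe the gene is read from depended on the processing. The probe at 0.94 spans 4343 bases of genome and so crosses a splice junction.

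Tlr13, a receptor for bacterial ribosomal RNA in mice, gave opposite signs at its probes, at chrX:103355773-103355832 and chrX:103354821-103354880 on mm9, plus strand. The first, from which the gene is read, shares a run of 24 bases (capitals) with a probe named for another gene.
Tlr13, bases 22 to 51 of the first probe: tctTGTAAGTAACCCCAATAAAACTCAttg
Tlr13, bases 1 to 30 of the second probe: taccaccgactcaggaaactcataaacaaa
It read 26598 on MeXis null and 32987 on WT, a difference of -0.39, in a region where the neighbours differed by -0.83. The second read 2643 on MeXis null and 1228 on WT, a difference of 1.03 (2.04-fold). Both were positive after local surface correction, at 0.44 and 0.67, the second also beyond the limit of 0.64, while with normexp they were -0.55 and 0.03.

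Tlr9, the receptor for unmethylated CpG DNA, read 1145 on MeXis null and 918 on WT, a difference of 0.24, or -0.02 once corrected. Tlr3, the receptor for double-stranded RNA, was near the lower end of detection, with 21.2 on MeXis null and 29.2 on WT at one probe and 7.45 on MeXis null and 25.2 on WT at the other, both above background on the WT array alone. Before local surface correction the first gives a bound of 1.13-fold lower and the second none. Neighbours of the first differed by -0.25. Tlr11 (8.84 on MeXis null and 7.76 on WT) and Tlr12 (7.34 on MeXis null and 13.1 on WT), the profilin receptors, passed background on neither array.

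The adaptors with a TIR domain differed little. Myd88, used by most Toll-like receptors, read 3561 on MeXis null and 2586 on WT, a difference of 0.39, or 0.08 after local surface correction. Tirap, which brings MyD88 to TLR2 and TLR4, read 718 on MeXis null and 596 on WT (0.19, or -0.19 corrected). Ticam1, which encodes TRIF, read 1885 on MeXis null and 1991 on WT (-0.15). Ticam2, the TRIF partner TRAM, was dim and its probes split. One read 78.0 on MeXis null and 55.9 on WT (0.40). The other read 18.4 on MeXis null and 41.5 on WT, above background on the WT array alone. Its bound of at least 1.60-fold lower is uncorrected, and its neighbours differed by -0.25.

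The IRAK kinases and Traf6 were read by 16 probes, 14 of them measured on both arrays. All 5 genes lay below 0 at the probe they are read from, between -0.47 and -0.12, though Irak3 turned to 0.62 with normexp, and 11 of the 14 probes were negative after local surface correction, against 8 before it. Among all genes 46.2% lay below 0 before correction and 52.9% after it, and among all probes 45.1% and 52.0%. None of the 5 reached 1.5-fold with the 75th percentile scaling, whereas with normexp Irak3 (0.62) and Irak4 (-0.80) passed it. Irak1, the kinase released from the receptor complex, had 3 probes close to each other, with -0.12, -0.33 and 0.01, and after correction -0.26, -0.34 and -0.28. Irak4, the first kinase of the cascade, read 458 on MeXis null and 601 on WT (-0.47) and, at its other probe, 171 on MeXis null and 143 on WT (0.19), which became -0.28 and -0.37.

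Irak2, the kinase of the later response, had 3 probes that differed among themselves by up to 2.19, or 1.09 after local surface correction, beside 1.52 and 1.20 for Traf6. The second and the third lie at chr6:113618349-113618408 and chr6:113643695-113643754 on mm9, plus strand, and are shown because their differences have opposite signs.
Irak2, bases 1 to 30 of the second probe: ttgtgctctctacagtttctatatccagtt
Irak2, bases 1 to 30 of the third probe: aagccaaaaggagactgatggagaacatcg
The first, from which the gene is read, gave 6436 on MeXis null and 7811 on WT, a difference of -0.35. It shares at least 16 bases with 3 probes of other gene names, which differed by 0.13 to 1.07. The second, 25286 bases from the third, read 477 on MeXis null and 1144 on WT, a difference of -1.34 (2.53-fold lower). The third read 184 on MeXis null and 96.8 on WT, a difference of 0.85. Local surface correction brought them to -0.27, -0.90 and 0.19, of which only the second lay beyond 0.64.

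Irak3, which encodes IRAK-M, an inhibitor of the cascade, read 870 on MeXis null and 899 on WT (-0.12) and 267 on MeXis null and 184 on WT (0.47) at probes 530 bases apart. Another, spanning 3786 bases of genome and so a splice junction, passed background on the WT array alone, with 20.7 on MeXis null and 71.2 on WT. Before correction it was at least 2.75-fold lower (scanner error 0.63), and its neighbours differed by -0.30. Traf6, the ubiquitin ligase downstream of the kinases, had 4 probes measured on both arrays. Their differences were 1.29, -0.23, -0.23 and 0.29. The first (477 on MeXis null and 185 on WT) was 2.45-fold higher, but its neighbours differed by 0.74, which left 0.55; the last, with neighbours at 0.94, became -0.65. The probe from which the gene is read gave 408 on MeXis null and 453 on WT.

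**Figure D3:**
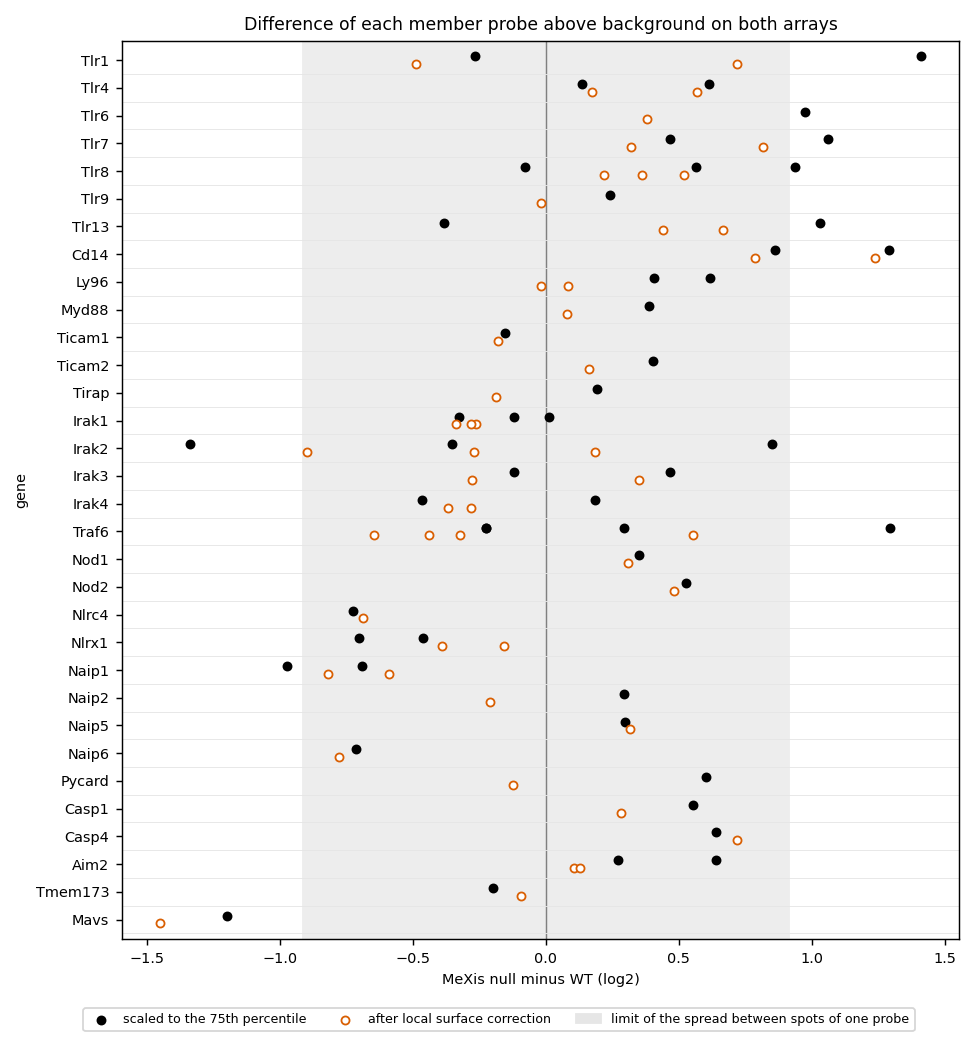
Log2 difference MeXis null minus WT (x axis) of the 52 member probes measured on both arrays, by gene (rows), as scaled to the 75th percentile (black) and after local surface correction (open orange); the grey band is the limit of 0.91 for the spread between spots of one probe. Cd14 and Mavs keep their place under correction, while Tlr1, Traf6 and Irak2 spread to both sides of 0.

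Among the cytosolic sensors, Nod1 and Nod2, which bind fragments of peptidoglycan, lay above 0. Nod1 read 2080 on MeXis null and 1549 on WT, a difference of 0.35. Nod2 read 164 on MeXis null and 108 on WT, a difference of 0.53, with a second probe near background. Neighbours differed by 0.04 and 0.05, and neither gene passed the limit, although Nod1 came to 0.99 with normexp. Nlrx1, a mitochondrial regulator of these pathways, was lower at both probes, with 412 on MeXis null and 636 on WT (-0.70) and 124 on MeXis null and 163 on WT (-0.46). They came to -0.39 and -0.16 after correction.

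The NAIP and NLRC4 genes split by member. Nlrc4, the platform that NAIP proteins engage, read 63.2 on MeXis null and 99.3 on WT, a difference of -0.73 (1.65-fold lower, scanner error 0.26). Naip6, a flagellin sensor, read 777 on MeXis null and 1209 on WT, a difference of -0.71. Naip1, a sensor of the secretion needle, read 98.2 on MeXis null and 151 on WT (-0.69) and 48.6 on MeXis null and 90.5 on WT (-0.97). Neighbours of the Nlrc4, Naip6 and first Naip1 spots differed by -0.04, 0.07 and 0.13, and the corrected values of -0.69, -0.78 and -0.82 lay beyond 0.64, whereas before correction only the second Naip1 probe had passed the limit of 0.91. Neighbours of that probe differed by -0.38, and its corrected value of -0.59 lay inside 0.64. With normexp Nlrc4 was at -0.37, Naip6 at -0.92 and the first and second Naip1 probes at -0.51 and -0.47. Naip2, a sensor of the secretion rod, differed by 0.29, with 4097 on MeXis null and 3173 on WT, and by -0.21 after correction. The NAIP genes are close copies of one another in a cluster on chromosome 13, and their probes may not tell them apart fully.

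Naip5, the other flagellin sensor, differed by 0.30 at a probe that is in large part a repeat. Its position is chr13:100981843-100981902 on mm9, minus strand, and the capitals mark the 23 bases shared with a probe of another gene; its letters resemble the B2 family of short interspersed repeats.
Naip5, bases 21 to 50: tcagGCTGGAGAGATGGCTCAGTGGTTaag
That probe read 15556 on MeXis null and 12021 on WT, and 14 probes of other gene names share at least 16 bases with it, on either strand. The second Naip5 probe passed background on the WT array alone, with 23.6 on MeXis null and 35.6 on WT. Before correction it was at least 1.38-fold lower, and its neighbours differed by 0.11. The value of Naip5 as a gene is therefore one of a repeat-bearing probe and is given as uncertain. In all, 15 of the 69 member probes share a run of at least 16 bases with another gene's probe and 4 share at least 20, beside 19.4% and 5.42% of all probes.

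The 4 inflammasome core genes lay above 0 before correction, as did 53.8% of all genes, and 3 of them after it, beside 47.1%. Casp1, the caspase that matures IL-1 beta, read 10467 on MeXis null and 6770 on WT, a difference of 0.55. Casp4, which encodes caspase-11, the mouse sensor of cytosolic LPS, read 1979 on MeXis null and 1205 on WT, a difference of 0.64 (1.56-fold). Pycard, which encodes the adaptor ASC, read 8377 on MeXis null and 5244 on WT, a difference of 0.60. Aim2, the sensor of cytosolic DNA, read 604 on MeXis null and 476 on WT (0.27) and 129 on MeXis null and 78.5 on WT (0.64). None passed 0.91. The neighbours of the Pycard spot differed by 0.73 and its corrected value was -0.13, whereas those of Casp4 differed by -0.08, and its corrected value of 0.72 lay beyond 0.64. Casp1 came to 0.28 and Aim2 to 0.11 and 0.13. A second Pycard probe, on the opposite strand, and the only Nlrp3 probe stayed below background. Nlrp3, the sensor of ion flux and crystals, read 6.91 on MeXis null and 5.73 on WT.

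Mavs was the lowest member. It encodes the mitochondrial adaptor of the RNA helicases RIG-I and MDA5, and its only probe lies at chr2:131073675-131073734 on mm9, plus strand. The capitals mark 16 bases shared with 1 probe of another gene name, which differed by -0.53.
Mavs, bases 11 to 40: agatggaAAGTATGCATACATTGatgctaa
The probe read 546 on MeXis null and 1191 on WT, a difference of -1.20 (2.30-fold lower, scanner error 0.21). The spots around it differed by 0.25, and the corrected difference was -1.45. Over the scalings tried it stayed between -1.45 and -1.02. Tmem173, which encodes STING, the adaptor of cytosolic DNA sensing, read 2382 on MeXis null and 2597 on WT, a difference of -0.20 that turned to 0.05 with normexp.

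Probes of the same gene disagreed about as often among the members as elsewhere. Of 15 member genes with more than 1 probe measured on both arrays, 8 had probes of opposite sign, beside 54.6% of 5194 such genes in all. In 5 genes the probes lay at least 2-fold apart, beside 31.4%, and in 3 after local surface correction, beside 19.3%. The median range between a member gene's probes was 0.59 before correction and 0.30 after it, and over all such genes 0.69 and 0.52. Across the 52 member probes the difference of a probe and that of its 100 neighbours had a Pearson correlation of 0.59, and over all probes measured on both arrays 0.57; the points share the 2 arrays and are a description only. Neighbours of the member probes ranged from -0.83 to 0.94 and 39 of 52 were positive, a count not set beside all probes.

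**Figure D4:**
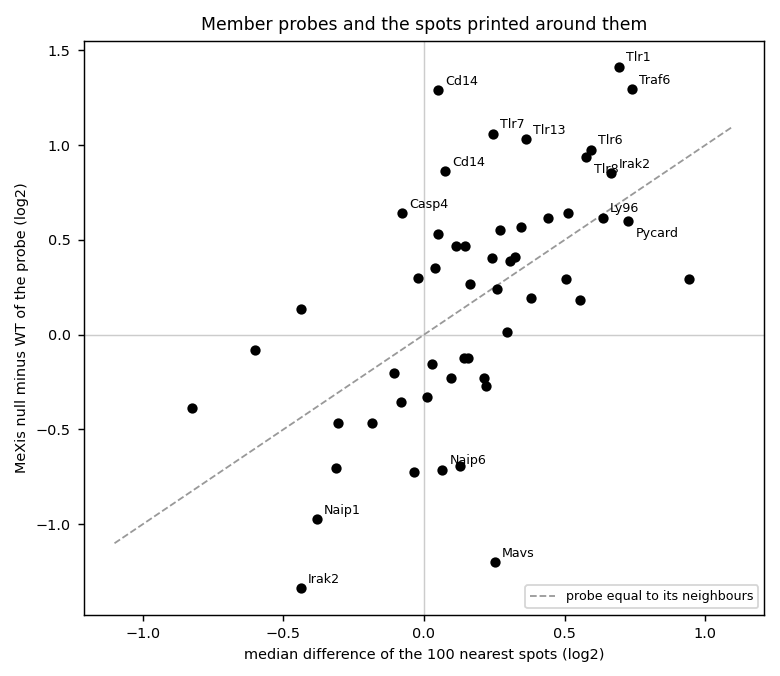
Log2 difference of each of the 52 member probes (y axis) against the median difference of the 100 spots printed nearest to it (x axis), with the dashed line where the 2 are equal. Pycard and the first Ly96 probe lie close to the line, Cd14 and Casp4 lie above it with neighbours near 0, and Mavs lies far below it.

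Other genes of these pathways, 53 chosen by function, included 48 measured on both arrays. Of these 2 were at least 2-fold higher, 1 at least 2-fold lower, and at 1.5-fold 7 were higher and 8 lower, against the shares of all genes given above. Cnpy4, a relative of the Toll-like receptor chaperone Cnpy3, read 654 on MeXis null and 189 on WT, a difference of 1.71, or 1.31 after local surface correction. Tab3, a partner of the kinase TAK1, read 574 on MeXis null and 256 on WT, a difference of 1.09, or 1.12 corrected. Ikbke, the IKK-related kinase that phosphorylates IRF3, read 424 on MeXis null and 1443 on WT, a difference of -1.84, or -1.13 corrected. The median was -0.02, and -0.23 after correction. Il1b, the product most often used as a readout of these pathways, read 14.7 on MeXis null and 6.83 on WT and passed background on neither array.

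Markers of other cells differed between the pools, and their part in these results was not tested. All 7 macrophage markers were well above background on both arrays. Their median difference was 0.43 before local surface correction, from Mertk at -1.95 to Lyz2 at 1.25. After it the 7 lay at -0.09 (Adgre1), -0.82 (Csf1r), 0.36 (Cd68), 0.05 (Itgam), 0.52 (Lyz2), -1.16 (Mertk) and -0.29 (Fcgr1). The medians and summed signals of the other lists below are also uncorrected. Of 6 B cell markers 4 were measured on both arrays, with a median of -1.13 and Cd79b at -1.70. The scaled signal summed over all 6, dim markers included, was 0.22 on MeXis null and 0.59 on WT. The 6 fibroblast markers had a median of 0.93 (summed signal 3.47 on MeXis null and 2.04 on WT, led by Fbn1 at 1.85 and Col1a2 at 1.11), and the 5 mesothelial markers one of 1.25 (summed signal 0.46 on MeXis null and 0.17 on WT, led by Wt1 at 1.61 and Upk3b at 1.45). Local surface correction left Cd79b at -1.43, Fbn1 at 1.51, Col1a2 at 1.21, Wt1 at 1.31 and Upk3b at 0.58. Markers of T and NK cells, neutrophils, eosinophils, mast cells, dendritic cells and endothelium had 1 or 2 genes each measured on both arrays, with medians of -0.88, -0.60, -0.73, 0.29, -0.34 and 0.23. These medians leave out markers above background on 1 array: mast cell Cma1 (8.24 on MeXis null and 60.6 on WT) and Cpa3 (6.32 on MeXis null and 37.1 on WT) and endothelial Pecam1 (12.8 on MeXis null and 58.3 on WT) passed on the WT array alone, and endothelial Egfl7 (43.0 on MeXis null and 17.7 on WT) on the MeXis null array alone. T cell Cd5, neutrophil Cxcr2 and eosinophil Il5ra also passed on the WT array alone. Eosinophil Epx, Prg2 and Ccr3 passed background on neither array. In pooled RNA fewer cells of a type and less RNA per cell cannot be told apart.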

How the data were processed

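Cy3-labelled total RNA of each genotype was read on 1 Agilent array. The deposited scanner files hold spot intensity on a linear scale, background-subtracted and detrended in Feature Extraction (version 11.5.1.1), as recorded per the file headers, and probe coordinates on mm9; exons and UTRs were not assigned here. The deposited value table held that same intensity for each of 62976 features (medians 17.0 on MeXis null and 12.9 on WT), so it is linear and not centred. Control spots were left out, as were outlier marks (205 spots on MeXis null, 305 on WT), and no spot was saturated. Values are log2 signal minus the array's 75th percentile over spots well above background on both. A gene, by its name in the files, took the probe whose log2 signal averaged highest, and calls used 2-fold. For a probe above background on 1 array the fold is a bound against the higher of its own dim signal and the array's lowest signal well above background. Such bounds take no account of the scanner error or the local surface. Of 69 member probes 57 matched a RefSeq accession, 56 of them under the same symbol (Tmem173 is now Sting1). Named genes were all members, partners past 2-fold, and up to 2 of the furthest markers of a list (some items are not reported here); Il1b was named after its value was seen. Members and lists were chosen with earlier results of these data known. Steps were tested on simulated data. Tools were Python 3.11.15, R 4.3.3 and limma 3.58.1 (normexp). With 1 array a group there is no test, and the number of arrays limits the precision.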

Additional observations from a re-analysis of the deposited data

How the results depend on the processing

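No paired analysis was possible because each genotype had 1 array. The count of members at least 2-fold higher was 0 and became 3 with normexp (Casp4, Cd14 and Tlr6), 1 with outlier spots kept (Tlr2), 1 with the median of a gene's probes (Cd14), 5 at 1.5-fold, and 1 when probes with shared runs of 20 bases were left out (Tlr13), an alternative chosen after seeing the data. Of all genes, 5.75% were at least 2-fold higher with normexp and 7.79% with outlier spots kept. That share was 6.66% by the median of a gene's probes and 7.62% with shared runs left out. The count of members at least 2-fold lower was 1, and became 2 with normexp (Mavs and Nlrx1) and 5 at 1.5-fold. Of all genes 5.18% were at least 2-fold lower with normexp. At 1.5-fold 19.3% of all genes were higher and 13.8% lower. Among the pathway partners the higher count of 2 became 4 with normexp, 4 without the filter on dim probes and 7 at 1.5-fold. Their lower count of 1 became 2 with normexp, median scaling, a 75th percentile taken over every non-control probe or local surface correction, and 8 at 1.5-fold. Without the filter on dim probes 17.6% of all genes were at least 2-fold higher. The share of all genes lower was 5.31% with median scaling, 5.51% with the percentile over every probe and 3.44% after local surface correction. The members' median of 0.16 ranged from -0.06 after local surface correction to 0.31 by the median of a gene's probes. Of the 52 measured probes 39 kept their sign under all scalings and background corrections and 13 did not, and none of those beyond 2-fold reversed. Values moved by more than the SD between spots for 13 probes with local surface correction and 9 with normexp, which among others gave 0.06 for the Ly96 repeat probe, 0.09 for the third Irak2 probe and 0.08 for the second Aim2 probe; the cause was not tested. Under quantile, loess and median scaling, the other percentile, the series matrix and kept outlier spots none did. These probe counts are not set beside a share over all probes and describe the members only. Signals near the lowest well above background, 27.3 on MeXis null and 12.1 on WT, limit the dim probes.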
